A study of Mus musculus with 8 samples.

Results

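The genes described here are 10 enzymes that make bile acids from cholesterol in the liver, Cyp7a1, Cyp8b1, Hsd3b7, Akr1d1, Cyp27a1, Cyp7b1, Acox2, Amacr, Slc27a5 and Baat. Members were found as probe sets whose single annotated gene symbol was 1 of these names, which gave 16 of the 45101 probe sets on the tumour array and 14 of the 22690 on the adenovirus array. All 10 genes had a probe set on each array type. Expression was measured as the MAS5 signal, a linear brightness value per probe set, in 4 groups of p53-/- mice, all of C57BL/6J background. The mTERC- group held 3 hepatocellular carcinomas of HBs transgenic mice that lacked the telomerase RNA gene, and the mTERC+ group held 3 such carcinomas of HBs transgenic mice that carried it. Those mice were 12 to 15 months old, and each array carried 1 tumour. The TRF2DBDM group was 1 array of liver RNA pooled from 3 mice, taken 48 hours after intravenous infection with an adenovirus (Ad) encoding TRF2DBDM, a shortened TRF2, which is a protein that binds telomeres. The GFP group was 1 array of RNA pooled from 3 mice given an adenovirus for green fluorescent protein. The design has no non-tumour liver of the HBs mice and no uninfected liver, and neither the sex of the mice nor the promoter of the HBs transgene is named in the labels.

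Bile acids are the main route by which the body disposes of cholesterol, and they act as detergents for dietary fat and as hormones for nuclear receptors. In the classic route Cyp7a1 hydroxylates the sterol ring, Hsd3b7 and Akr1d1 modify the ring further, and Cyp8b1 adds the hydroxyl group that makes cholic acid. In the alternative route Cyp27a1 oxidises the side chain first and Cyp7b1 hydroxylates the ring. The side chain is then shortened in peroxisomes, where Amacr and Acox2 act, and Baat joins the product, a CoA ester, to taurine or glycine. Slc27a5 makes CoA esters of bile acids that return to the liver. Bile acids repress Cyp7a1 and Cyp8b1 through the nuclear receptor FXR, the product of Nr1h4, its target Nr0b2 (SHP), and an intestinal hormone that acts on the receptor Fgfr4 with its partner Klb.

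No member passed the test between mTERC- and mTERC+ tumours. In mTERC- tumours the mean was higher for 3 members and lower for 7, with a median log2 difference of -0.11, while 48.6% of all 11980 genes tested had a lower mean and their median was 0.02. A member was called at a Benjamini-Hochberg adjusted p below 0.05 in limma, a rule met by 0.00835% of the genes tested (1 gene) and by 0 members. At an unadjusted p below 0.05, 604 genes (5.04%) and 1 member, Slc27a5, came out. In the adenovirus livers, 9 of the 10 members had a higher signal in the TRF2DBDM pool, and 5 were at least 2-fold higher, namely Cyp8b1, Slc27a5, Cyp7a1, Akr1d1 and Cyp27a1. None of the 10 was at least 2-fold lower (0 members). A ratio of at least 2 was seen for 4.62% of the 7789 genes compared in the higher and 2.90% in the lower direction, or 3.18% and 1.86% of all 12394 genes with no level filter. The median log2 ratio was 0.86 over the 10 members and 0.02 over the genes compared. With 1 pool per group these values have no error, no test was possible, and they describe these pools. Differences and ratios here are on the scale of log2(signal + 32), which understates those of dim genes.

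**Figure D1:**
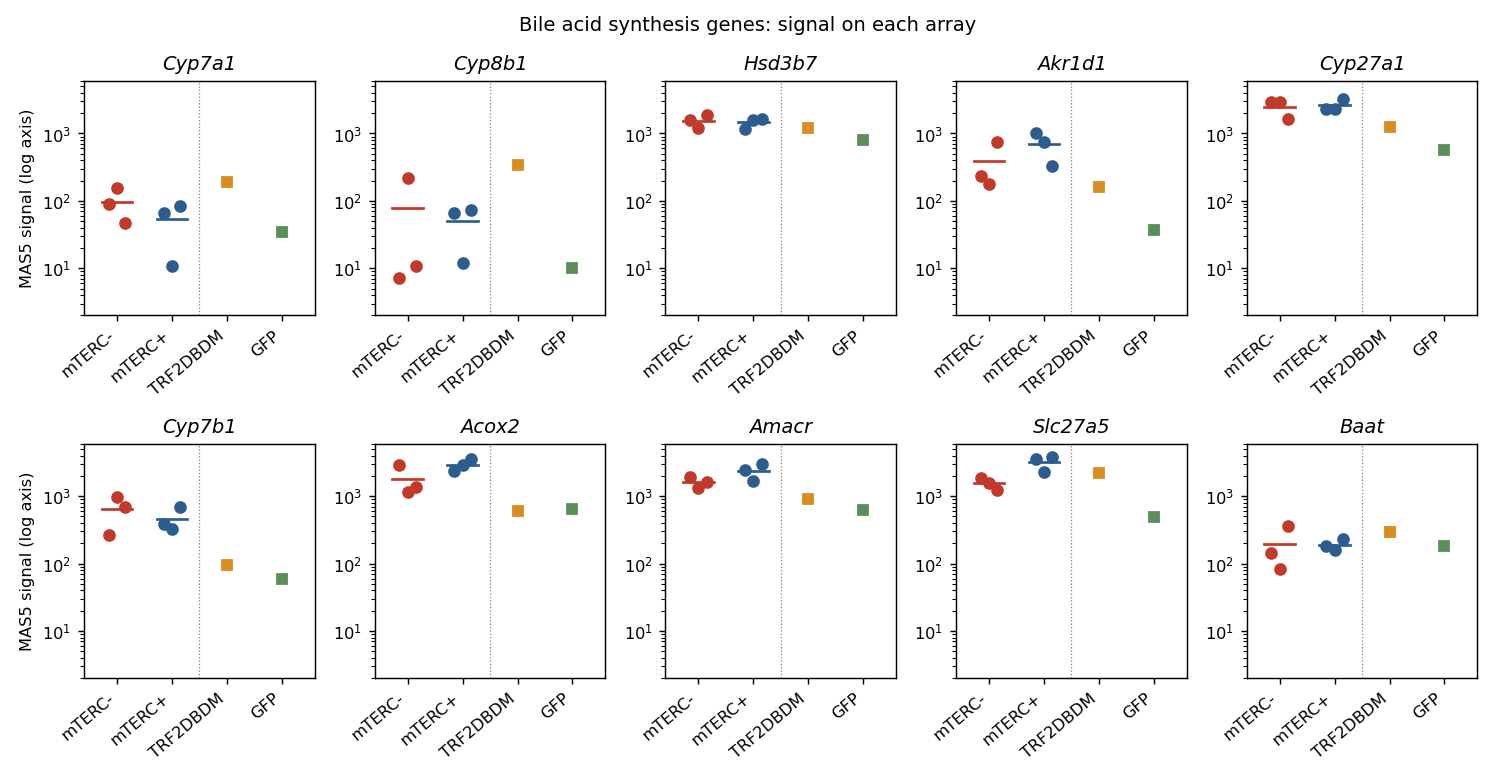
MAS5 signal (log axis) of each of the 10 members on every array, with 1 circle per tumour for mTERC- and mTERC+, a horizontal line at each tumour group's mean, and 1 square per pool for TRF2DBDM and GFP. The dotted line separates the array types, which were scaled separately. Cyp8b1 stood at 337 in the TRF2DBDM pool against 10.2 in the GFP pool, and Slc27a5 was the member whose tumour groups did not overlap.

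The arrays of a table were on one scale, with a mean signal of 150 after leaving out the lowest and highest 2% of values. The median signal was 54.5 to 59.4 on 5 tumour arrays and 75.1 on mTERC- tumour 2, where the Gapdh control probe sets gave a 3'/5' ratio of 13.8, while the remaining tumours gave 0.983 to 1.18. This ratio compares the ends of a transcript and can be high where RNA is broken. The control probe sets of Actb, an actin gene, gave a ratio of 2.28 on mTERC- tumour 2 and at most 1.64 on the remaining tumours. Both controls were highest on mTERC- tumour 2 but differed in size, and the state of its RNA was not tested. The median was 52.5 for the TRF2DBDM pool and 46.1 for the GFP pool. The tissue field of the labels names hepatocytes, and the hepatocyte marker Alb had signals of 38450 to 50192 in mTERC- tumours, 42039 to 53965 in mTERC+ tumours, 11361 in the TRF2DBDM pool and 8672 in the GFP pool. In RNA of whole tissue, fewer cells of a type and less RNA per cell cannot be told apart.

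Among the classic route genes, Cyp7a1 (Entrez Gene 13122), the rate-limiting enzyme, had a low signal in the tumours. It was 90.6, 156 and 46.6 in mTERC- tumours 1, 2 and 3, and 66.8, 10.8 and 83.1 in mTERC+ tumours 1, 2 and 3. The groups overlapped, and mTERC- tumour 2 was the highest and mTERC+ tumour 2 the lowest of the 6. The log2 difference was 0.63 (SE 0.57, 95% interval -0.59 to 1.86), with an adjusted p of 0.967 in limma. It was 0.19 without mTERC+ tumour 2, 0.32 without mTERC- tumour 2, 0.95 without mTERC- tumour 3, and 1.12 with a pseudocount of 1. In the adenovirus livers Cyp7a1 had 189.8 in the TRF2DBDM pool and 34.9 in the GFP pool, a ratio of 3.32. Its other probe set gave 86.8 in the TRF2DBDM pool and 2.8 in the GFP pool, also higher in the TRF2DBDM pool. The GFP signals of Cyp7a1, Cyp8b1 and Akr1d1 were below that array's median of 46.1, so the size of their ratios depends on the 32 added to each signal. In the tumours that other probe set lay between 26.8 and 65.9 in mTERC- and between 5.1 and 79.7 in mTERC+, again with overlap.

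Cyp8b1 (Entrez Gene 13124), the hydroxylase that sets the share of cholic acid, was the member with the largest difference between the adenovirus pools. Its signal was 337 in the TRF2DBDM pool and 10.2 in the GFP pool, which is below that array's median. The log2 ratio was 3.13 with 32 added to each signal, and it ran from 2.43 with 64 added to 4.92 with 1 added, so that its size is not fixed by these arrays. In the tumours its signal was 7.3, 217 and 10.8 in mTERC- tumours 1, 2 and 3, and 67.0, 11.9 and 72.8 in mTERC+ tumours 1, 2 and 3. The groups overlapped, mTERC- tumour 2 was the highest, and mTERC- tumours 1 and 3 and mTERC+ tumour 2 lay at 7.3 to 11.9. The mean level missed the filter, so its fit came from all 18194 genes, and gave a log2 difference of -0.04 (SE 0.68, 95% interval -1.48 to 1.40, adjusted p = 0.998 in limma). The log2 difference was -0.91 once mTERC- tumour 2, whose Gapdh ratio was 13.8, was left out (adjusted p = 0.965 in limma, and 0.802 to 0.998 over the settings that kept all tumours).

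The promoter windows of Cyp8b1, Akr1d1 and Cyp27a1, printed here, belong to the members at least 2-fold higher in the TRF2DBDM pool for which a window was at hand. They come from RefSeq on build GRCm38.p6, and windows of 5 of the 10 members were used here. They run from 250 bases before to 50 bases after an annotated start, 5′ to 3′ in the direction of the gene. The starts used for Akr1d1 and Cyp27a1 lie inside their RefSeq genes, which begin at chr6:37529978 and chr1:74713148. The whole Cyp27a1 window thus lies within the gene. Capitals mark the letters of a motif found on either strand.
Cyp8b1, chr9:121916256-121916555, minus strand: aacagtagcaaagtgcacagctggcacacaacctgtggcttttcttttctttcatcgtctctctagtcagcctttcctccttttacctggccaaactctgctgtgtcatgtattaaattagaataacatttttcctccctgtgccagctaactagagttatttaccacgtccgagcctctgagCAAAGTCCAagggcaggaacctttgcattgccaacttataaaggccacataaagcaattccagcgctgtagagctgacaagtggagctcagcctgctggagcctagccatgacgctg
Akr1d1, chr6:37529923-37530222, plus strand: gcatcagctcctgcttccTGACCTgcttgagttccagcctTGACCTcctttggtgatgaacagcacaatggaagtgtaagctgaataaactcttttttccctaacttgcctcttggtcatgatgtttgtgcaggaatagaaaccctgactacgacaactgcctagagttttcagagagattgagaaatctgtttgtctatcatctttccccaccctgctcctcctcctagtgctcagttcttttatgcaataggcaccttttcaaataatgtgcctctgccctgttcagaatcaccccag
Cyp27a1, chr1:74713285-74713584, plus strand: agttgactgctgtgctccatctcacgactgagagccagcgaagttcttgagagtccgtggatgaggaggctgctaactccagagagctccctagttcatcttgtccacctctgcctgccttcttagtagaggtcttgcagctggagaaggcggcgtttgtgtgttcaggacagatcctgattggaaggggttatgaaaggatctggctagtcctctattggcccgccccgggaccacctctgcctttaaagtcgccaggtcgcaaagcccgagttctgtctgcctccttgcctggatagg
The letters CAAAGTCCA, a form bound by the hepatocyte nuclear receptor HNF4A, start 67 bases before the Cyp8b1 start. This motif was searched for after the Cyp8b1 window had been read, and 0.475% of all 32851 promoter windows hold it on either strand. The core nuclear receptor site AGGTCA is found in 16.3% of windows. The Akr1d1 window holds it in reverse, as TGACCT, at 232 and 210 bases before the start used for that window. The other letters searched were CAAGGTCA, bound by the receptor NR5A2 and found in 1.56% of windows, and pairs of that core site 1 base apart, as AGGTCANAGGTCA (0.0396%) or AGGTCANTGACCT (0.00913%). The single core site lies within CAAGGTCA and within the pairs, so these searches overlap. None of these letters was found in the windows of Cyp27a1, Hsd3b7 and Acox2. A match describes the letters of a window and is not a measured binding site, and no match says nothing of a factor. Hnf4a itself, named here because of that motif and not by the rule for named genes, had 1592 in the TRF2DBDM pool and 2052 in the GFP pool, a ratio of 0.78. Nr5a2 had 294.6 in the TRF2DBDM pool and 203 in the GFP pool, a ratio of 1.39.

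Akr1d1 (Entrez Gene 208665), the reductase that gives the sterol ring its bent shape, had 161 in the TRF2DBDM pool and 36.8 in the GFP pool, a ratio of 2.80. A dimmer probe set of the gene gave 44.0 in the TRF2DBDM pool and 3.1 in the GFP pool, a ratio of 2.17. In mTERC- tumours 1, 2 and 3 its signal was 233, 175 and 752, and in mTERC+ tumours 1, 2 and 3 it was 1013, 755 and 327. The mTERC- mean was 387 ± 318 and the mTERC+ mean 699 ± 346 (SD, n = 3 each), and the groups overlapped through mTERC- tumour 3 and mTERC+ tumour 3. The log2 difference was -0.93 (SE 0.51, 95% interval -2.01 to 0.16), and the adjusted p was 0.953 in limma. It was -0.55 without mTERC- tumour 2, the array with the high Gapdh ratio, -0.60 without mTERC+ tumour 1 and -1.51 without mTERC- tumour 3. The dimmer probe set had a log2 difference of -0.17, so the chosen probe set alone carried the larger value.

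Hsd3b7 (Entrez Gene 101502), the dehydrogenase that acts after the ring hydroxylation by Cyp7a1 or Cyp7b1, varied least of the 10 members. It had 1587, 1225 and 1859 in mTERC- tumours and 1184, 1567 and 1657 in mTERC+ tumours. The groups overlapped almost fully, with a log2 difference of 0.08 (SE 0.33, 95% interval -0.63 to 0.78, adjusted p = 0.991 in limma). In the adenovirus livers it had 1194 in the TRF2DBDM pool and 792 in the GFP pool, a ratio of 1.49.

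Of the alternative route genes, Cyp27a1 (Entrez Gene 104086), a mitochondrial oxidase of the side chain, was bright on every array. Its signal was 2949, 2915 and 1650 in mTERC- tumours and 2300, 2308 and 3199 in mTERC+ tumours. The groups overlapped, with a log2 difference of -0.08 (SE 0.34, 95% interval -0.82 to 0.65, adjusted p = 0.989 in limma). In the TRF2DBDM pool it had 1255, against 574 in the GFP pool, a ratio of 2.12. With each array centred on its median the log2 ratio was 0.97, just under a 2-fold difference, and 4 of the 10 members were then at least 2-fold higher. That centring moved the median of all probe sets by -0.11 on the log2 scale. The dim probe set present on the tumour array alone lay between 2.8 and 58.4 over the 6 tumours and missed the level filter.

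Cyp7b1 (Entrez Gene 13123), the ring hydroxylase of the alternative route, had 269, 976 and 690.2 in mTERC- tumours and 391, 323 and 681 in mTERC+ tumours. The highest and the lowest of the 6 values were both in mTERC- tumours, and the log2 difference was 0.34 (SE 0.45, 95% interval -0.62 to 1.31, adjusted p = 0.967 in limma). It was 0.85 without mTERC- tumour 1 and -0.03 without mTERC- tumour 2. In the adenovirus livers Cyp7b1 had 94.3 in the TRF2DBDM pool and 60.0 in the GFP pool, a ratio of 1.37. A further probe set gave 83.4 in the TRF2DBDM pool and 23.7 in the GFP pool, a ratio of 2.07, so the probe sets fell on either side of a 2-fold difference. Cyp7b1 is known to be expressed more in male than in female mouse liver, so markers of sex were read beside it. Xist, a transcript of female cells chosen after its values were seen, had 921 in mTERC- tumour 1, 68.4 and 16.8 in the other mTERC- tumours, 9.6 to 56.8 in mTERC+ tumours, 3607 in the TRF2DBDM pool and 2308 in the GFP pool. The Y-linked gene Eif2s3y had 70.5, 142 and 52.8 in mTERC- tumours 1, 2 and 3, 139 to 219.8 in mTERC+ tumours, 2.3 in the TRF2DBDM pool and 0.7 in the GFP pool. The tumour with the lowest Cyp7b1, mTERC- tumour 1, had the highest Xist, while the tumour with the lowest Eif2s3y, mTERC- tumour 3, had the Cyp7b1 signal of 690.2. A fit with Y-linked expression as a covariate gave Cyp7b1 a log2 difference of 0.54 (adjusted p = 0.809 in limma). That covariate, the mean log2 level of 3 Y-linked genes, was 6.37 in mTERC- tumour 1 and 6.22 in mTERC- tumour 3. It was not lowest in the tumour with the highest Xist, so the fit cannot decide the part of sex, which was not tested.

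**Figure D2:**
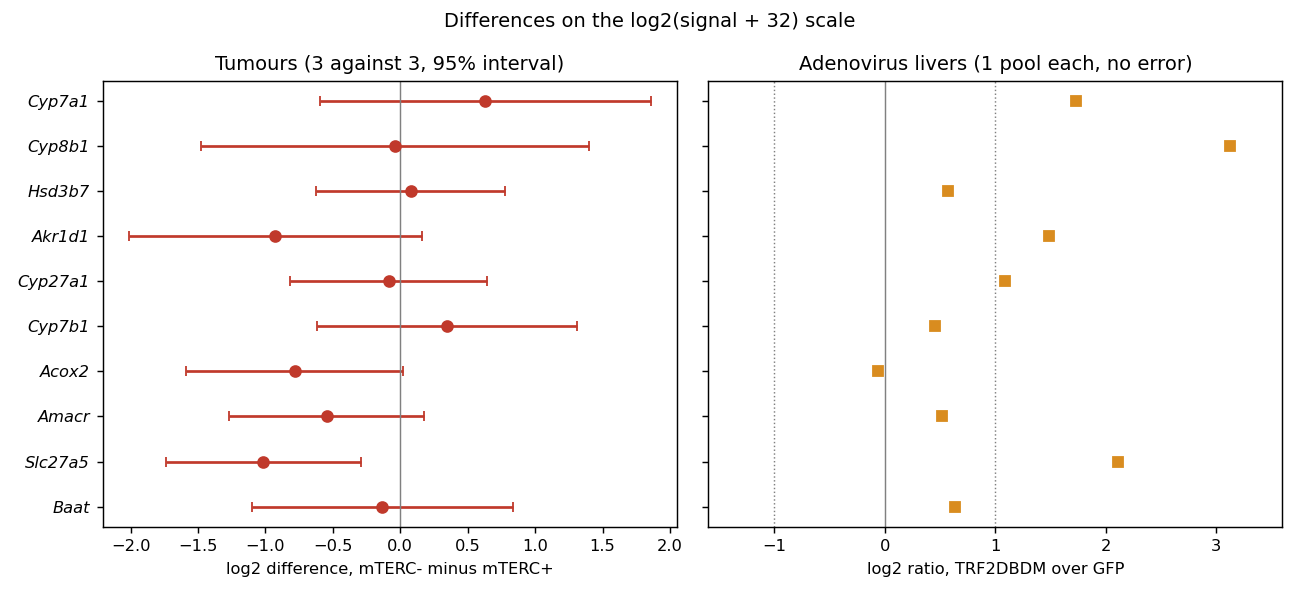
The left panel shows the log2 difference of each member between mTERC- and mTERC+ tumours (3 against 3) with its 95% interval from limma, and the right panel the log2 ratio of the TRF2DBDM over the GFP pool, which has no error. Dotted lines mark a 2-fold difference. The tumour interval of Slc27a5 ran from -1.73 to -0.29, and the other 9 intervals included 0.

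The peroxisomal genes had lower means in mTERC- tumours and did not pass the test. Acox2 (Entrez Gene 93732), an oxidase of the branched side chain, had 2868, 1170 and 1391 in mTERC- tumours and 2343, 2887 and 3619 in mTERC+ tumours. Only mTERC- tumour 1 lay within the mTERC+ range. The log2 difference was -0.78 (SE 0.38, 95% interval -1.59 to 0.02, adjusted p = 0.953 in limma). Acox2 was also the 1 member that was not higher in the TRF2DBDM pool, at 611 against 638 in the GFP pool, a ratio of 0.96. Amacr (Entrez Gene 17117), the racemase that prepares the side chain for this oxidase, had 1930, 1303 and 1601 in mTERC- tumours and 2482, 1700 and 3010 in mTERC+ tumours. Its groups overlapped through mTERC- tumour 1 and mTERC+ tumour 2, with a log2 difference of -0.54 (SE 0.34, 95% interval -1.27 to 0.18, adjusted p = 0.953 in limma). Amacr had 918 in the TRF2DBDM pool and 629.9 in the GFP pool, a ratio of 1.43.

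Of the amidation genes, Slc27a5 (Entrez Gene 26459), which encodes the bile acid CoA ligase of the liver, was the member whose tumour groups did not overlap. Its signal was 1891, 1548 and 1244 in mTERC- tumours and 3574, 2280 and 3800 in mTERC+ tumours. Every mTERC- tumour lay below every mTERC+ tumour, while 10.1% of all genes tested had groups that did not overlap (4.39% with mTERC- lower and 5.75% with mTERC- higher). The mTERC- mean was 1561 ± 324 and the mTERC+ mean 3218 ± 820 (SD, n = 3 each), and the log2 difference was -1.01 (SE 0.34, 95% interval -1.73 to -0.29). The unadjusted p was 0.009 and the adjusted p 0.906 in limma, so the difference did not pass over all genes. The adjusted p was 0.551 to 0.970 over the settings that kept all tumours. With each tumour left out in turn the log2 difference stayed between -1.24 and -0.86. In the adenovirus livers Slc27a5 had 2213 in the TRF2DBDM pool and 488 in the GFP pool, a ratio of 4.32.

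Baat (Entrez Gene 12012), which joins bile acids to an amino acid, had 146, 82.3 and 359 in mTERC- tumours and 181, 158 and 229 in mTERC+ tumours. The mTERC- values spread to either side of the mTERC+ range, and the log2 difference was -0.13 (SE 0.45, 95% interval -1.10 to 0.84, adjusted p = 0.985 in limma). The Baat probe sets disagreed in the adenovirus livers. The brighter one had 299 in the TRF2DBDM pool and 181 in the GFP pool, a ratio of 1.56, and the dimmer one had 20.4 in the TRF2DBDM pool and 58.1 in the GFP pool, a ratio of 0.58.

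**Figure D3:**
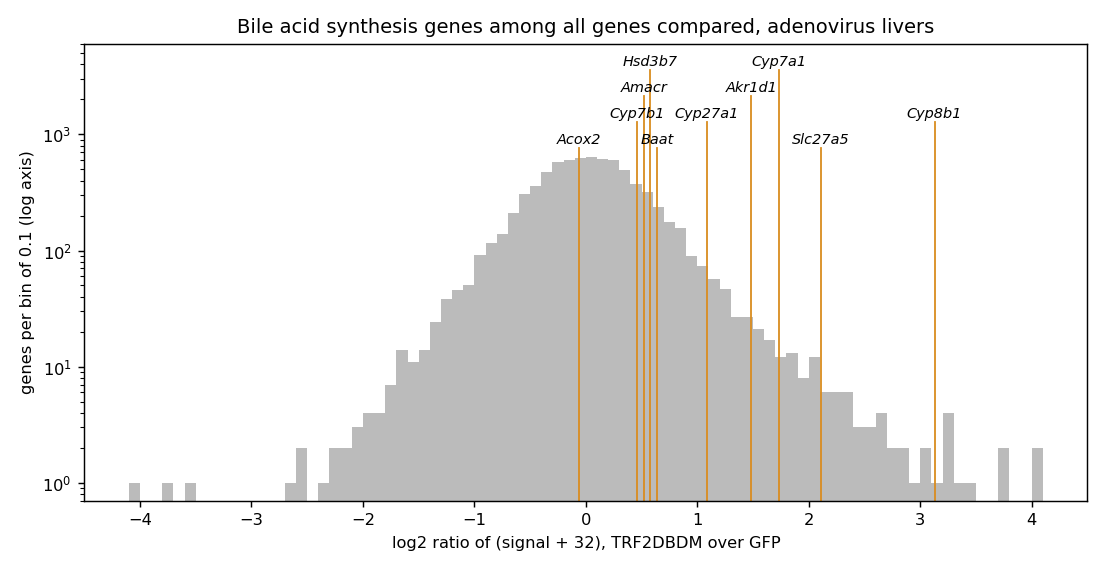
Histogram of the log2 ratio of the TRF2DBDM over the GFP pool for the 7789 genes compared (genes per bin on a log axis), with an orange line at each of the 10 members. Acox2 sat at -0.06 near the centre, and Cyp8b1 at 3.13 was far to the right.

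All 10 members passed the level filter for the adenovirus pair, which kept genes that reached the median of either array. Of these, Cyp7a1, Cyp8b1 and Akr1d1 passed through the TRF2DBDM pool alone, so that a higher signal there was a condition of their passing. Among the other 7 members, which were at or above the median in the GFP pool as well, 2 were at least 2-fold higher. General hepatocyte genes were higher in the TRF2DBDM pool too. All 15 measured hepatocyte markers had a log2 ratio above 0, 6 were at least 2-fold higher, and the median was 0.80. Their summed signal was 96418 in the TRF2DBDM pool and 57064 in the GFP pool, and none was near 0, the lowest being 132. The summed signal of 12 macrophage markers was 2819 in the TRF2DBDM pool and 1835 in the GFP pool. Of 9 macrophage markers compared, 7 were higher in the TRF2DBDM pool, 5 of them at least 2-fold, and 2 were lower. Cd68, among the lower, had 320 in the TRF2DBDM pool and 799 in the GFP pool. For 10 endothelial markers the sum was 2839 in the TRF2DBDM pool and 2160 in the GFP pool. The 10 stellate and fibroblast markers summed to 2182 in the TRF2DBDM pool and 1884 in the GFP pool, and 9 neutrophil markers to 1676 in the TRF2DBDM pool and 2359 in the GFP pool. Of 7 neutrophil markers compared, 3 were higher and 4 lower in the TRF2DBDM pool. The 7 cholangiocyte markers summed to 174.0 in the TRF2DBDM pool and 276 in the GFP pool. Only 2 of these 7 passed the level filter, both lower in the TRF2DBDM pool, so much of the sum was dim signal. Among the dim ones Cftr went the other way, with 22.6 in the TRF2DBDM pool and 1.5 in the GFP pool. The part of the cell makeup in the members' ratios was not tested.

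The order of the 6 tumours differed between members. mTERC+ tumour 3 had the highest signal of the 6 for 4 members, which were Cyp27a1, Acox2, Amacr and Slc27a5, and the lowest for 0. mTERC- tumour 2 had the highest signal for Cyp7a1, Cyp8b1 and Cyp7b1 and the lowest for Akr1d1, Acox2, Amacr and Baat. mTERC- tumour 3 was highest for Hsd3b7 and Baat and lowest for Cyp27a1 and Slc27a5. mTERC+ tumour 1 was highest for Akr1d1. The SD of the log2 level over the 6 tumours was 1.05 for Cyp8b1 and 0.96 for Akr1d1, at percentiles 96.3 and 93.0 of the genes tested, and the median over those genes was 0.54. It was 0.25 for Hsd3b7 and 0.35 for Cyp27a1, at percentiles 6.7 and 18.5. Cyp7a1, Cyp7b1, Acox2, Slc27a5, Baat and Amacr lay between, from 0.72 for Cyp7a1 to 0.43 for Amacr.

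Levels on the array types can be set side by side only as a description, since the tables were scaled separately. Over the 22690 probe sets on both, the median signal was 96.1 to 115 on the tumour arrays, against 52.5 on the TRF2DBDM array and 46.1 on the GFP array, so the tumour table ran brighter. Against that shift, Cyp7a1 and Cyp8b1 were lower in every tumour than in the TRF2DBDM pool. Cyp8b1 had 7.3 to 217 in the 6 tumours, against 337 in the TRF2DBDM pool and 10.2 in the GFP pool. Cyp7a1 had 10.8 to 156 in the 6 tumours, against 189.8 in the TRF2DBDM pool and 34.9 in the GFP pool. Cyp7b1 ran the other way, with 269 to 976 in the tumours, against 94.3 in the TRF2DBDM pool and 60.0 in the GFP pool. Akr1d1, Acox2, Amacr and Cyp27a1 also had each tumour above both pools, while Hsd3b7, Slc27a5 and Baat had the TRF2DBDM pool within the range of the tumours. The sex markers read beside Cyp7b1 differed between tumours and pools as well. Xist had 9.6 to 921 in the tumours, 3607 in the TRF2DBDM pool and 2308 in the GFP pool. Eif2s3y had 52.8 to 219.8 in the tumours, 2.3 in the TRF2DBDM pool and 0.7 in the GFP pool. The part of sex in these levels was not tested.

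Other bile acid enzymes, transporters and regulators gave 0 calls in the tumours in limma. Of the list of other enzymes, 13 of 16 genes were measured and 10 tested, with 6 higher and 4 lower means in mTERC- tumours and a median log2 difference of 0.01. Cyp39a1, a hydroxylase of an oxysterol branch, had 631, 499.9 and 812 in mTERC- tumours and 444, 240.0 and 117 in mTERC+ tumours. Its groups did not overlap, and the log2 difference was 1.31 (SE 0.43, adjusted p = 0.906 in limma). Acnat2, an acyltransferase of peroxisomes, had a log2 difference of 1.24, with mTERC+ tumour 3 at 18.8 and the other 5 tumours at 367 to 571. Acaa1b, a thiolase of peroxisomes, had -0.42 with no overlap, and Akr1c6, a hydroxysteroid dehydrogenase, had 0.59. Of the 10 tested, groups did not overlap for 1 with mTERC- higher and 1 with mTERC- lower. Over all genes tested 10.1% had groups that did not overlap.

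Of 15 transporters measured and 13 tested, 4 had a higher and 9 a lower mean in mTERC- tumours, with a median log2 difference of -0.13. That median was 0.23 without mTERC+ tumour 3. Slc10a1, the sodium-dependent carrier that takes bile acids up from blood, had 658, 1012 and 980.4 in mTERC- tumours and 281, 375 and 489 in mTERC+ tumours. The groups did not overlap, with a log2 difference of 1.15 (SE 0.36, unadjusted p = 0.006 and adjusted p = 0.906 in limma). Its other probe set did not overlap either, at 218 to 477 in mTERC- and 78.3 to 179 in mTERC+ tumours. Slco1b2, a sodium-independent uptake carrier, had a log2 difference of -1.08, Abcb11, the export pump into bile, of -0.54, and Abcc4, an export pump towards blood, of 0.67, and these groups overlapped. Of 21 sensors and regulators 19 were measured and tested, with 10 higher and 9 lower means and a median of 0.02. Klb had 766 to 883 in mTERC- tumours and 249.0 to 706 in mTERC+ tumours with no overlap, at a log2 difference of 0.76. Groups did not overlap for 1 of the 13 transporters tested, with mTERC- higher. Among the 19 sensors and regulators this held for 1 with mTERC- higher and 1 with mTERC- lower. The share over all genes tested was 10.1%. Nr1h3, the oxysterol receptor gene, had a log2 difference of -0.93, Nr0b2 of 0.68 and Klf15, a transcription factor of fasting metabolism, of -0.42.

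In the adenovirus livers the further lists are read beside the 4.62% of all compared genes that were at least 2-fold higher and the 2.90% that were at least 2-fold lower, and beside the hepatocyte markers, with 6 of 15 at least 2-fold higher. Of 12 transporters measured 10 were compared, and their median log2 ratio was 1.13. A ratio of 2 or more was seen for 6 of them with TRF2DBDM higher and for 1 with TRF2DBDM lower. The transporter list, here and in the tumours, also holds Ephx1, an epoxide hydrolase gene. Ephx1 is among these 6, with 1673 in the TRF2DBDM pool and 585 in the GFP pool. Slc10a1 had 817 in the TRF2DBDM pool and 114 in the GFP pool, and its other probe set had 576 in the TRF2DBDM pool and 104.5 in the GFP pool. Slco1a4, an uptake carrier, had 165 in the TRF2DBDM pool and 37.7 in the GFP pool, and Slco1b2 had 518 in the TRF2DBDM pool and 163 in the GFP pool. Abcc3, an exporter on the blood side of the hepatocyte, went the other way, at 299 in the TRF2DBDM pool and 996 in the GFP pool, a ratio of 0.32. Of 12 other enzymes 4 were at least 2-fold higher and 0 lower, with a median of 0.87. They were Akr1c6, with 2429.5 in the TRF2DBDM pool and 441 in the GFP pool, Acaa1b and Scp2, a sterol carrier and thiolase of peroxisomes, with ratios of 2.43 and 2.16, and Cyp39a1, with 2.04. Of 19 sensors and regulators 1 was at least 2-fold higher and 0 lower, with a median of 0.12. That gene was Nr1h4, at 206 in the TRF2DBDM pool and 77.4 in the GFP pool. Nr0b2 had 377 in the TRF2DBDM pool and 600.4 in the GFP pool, a ratio of 0.65. Ppara, a receptor of fatty acids, Nr1i3, a receptor of foreign compounds, and Ppargc1a, a coactivator of fasting, had ratios of 1.80, 1.68 and 1.64. Ppargc1a, with 24.4 in the GFP pool, also passed the level filter through the TRF2DBDM pool alone. So did Slco1a4, with 37.7 in the GFP pool, among the transporters and Cyp46a1, with 23.3, among the other enzymes. A higher signal in the TRF2DBDM pool was thus a condition of their passing.

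**Figure D4:**
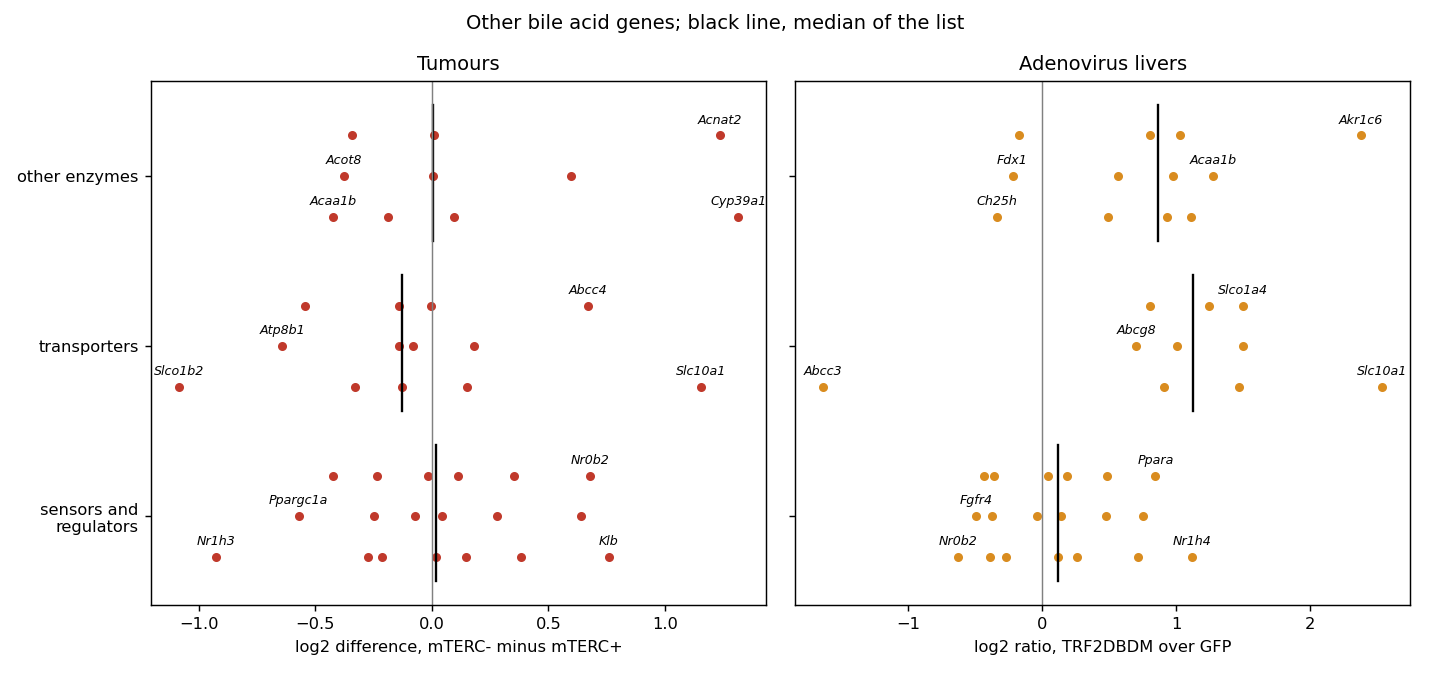
Log2 difference between mTERC- and mTERC+ tumours (left) and log2 ratio of the TRF2DBDM over the GFP pool (right) for each tested or compared gene of the 3 further lists, 1 point per gene, with a black line at the list median and the genes at the ends named. The medians of the enzymes and transporters were 0.87 and 1.13 in the adenovirus livers and 0.01 and -0.13 in the tumours.

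The genes whose levels followed Cyp7a1 most closely over the 6 tumours were Klhdc4, Rnf144a, Mrvi1, Dsc1 and Nipal2, with Pearson r from 0.975 to 0.983 on the log2 scale. For Cyp8b1 they were Dnajb8, Klhdc3, Wfdc15b, Ppp1r14c and Hcfc1r1, with r from 0.979 to 0.998. All 10 of these genes, like Cyp7a1 and Cyp8b1, had their highest signal in mTERC- tumour 2, whose array had the highest median and a Gapdh ratio of 13.8. They were the 5 highest of 11418 genes for Cyp7a1 and of 11419 for Cyp8b1, and none belongs to the bile acid lists.

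Markers of other cell types were read beside the tumour values. The summed signal of 9 neutrophil markers was 9106 to 22006 in mTERC- tumours and 396 to 3049 in mTERC+ tumours, and all 7 tested had a higher mean in mTERC- tumours. Most of the mTERC- sums came from S100a8, at 2759 to 7407, and S100a9, at 5523 to 10671. Of the 7 tested, 3 had groups that did not overlap, and Camp, Ngp, Ltf and Elane overlapped. The 12 macrophage markers summed to 11699 to 19230 in mTERC- tumours and 10791 to 65143 in mTERC+ tumours, and all 12 had a lower mean in mTERC- tumours. The 10 endothelial markers summed to 1205 to 2289 in mTERC- tumours and 1836 to 3404 in mTERC+ tumours. The 5 erythroid markers summed to 325 to 571 in mTERC- tumours and 717 to 1219 in mTERC+ tumours. Of the 3 erythroid markers tested, 1 had a higher and 2 a lower mean in mTERC- tumours. Alas2 alone had groups that did not overlap, at 69.7 to 390.7 in mTERC- and 600.9 to 893.7 in mTERC+ tumours. The 7 cholangiocyte markers summed to 905 to 1338 in mTERC- tumours and 580.3 to 988 in mTERC+ tumours. The 16 hepatocyte markers summed to 202454 to 283657 in mTERC- and 246293 to 302394 in mTERC+ tumours, with a median log2 difference of -0.10. Their part in the values of Slc27a5, Cyp39a1 and Slc10a1 was not tested.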

How the data were processed

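RNA of 6 tumours and 2 pooled livers was measured on 2 types of Affymetrix array, from 6 micrograms of RNA each, per the labels' protocols. The authors deposited linear MAS5 intensity values, the tool being named in the submitters' processing notes. Its version and scaling target were not stated there. Only probe sets that the platform table pairs with 1 symbol were used (34958 on the tumour and 20393 on the adenovirus array), with names checked against RefSeq. For each gene the probe set used was that of highest mean log2(signal + 32). In the tumours, genes at or above the median level of all probe sets were tested (11980 of 18194 genes) by limma 3.58.1 (R 4.3.3) with the eBayes variance trend, two-sided tests and Benjamini-Hochberg adjustment over all genes tested. The groups have 3 tumours each, and the number of arrays limits the precision. Dim members were fitted among all genes. The adenovirus pools had 1 array each and were not tested.

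The text names all members, up to 4 genes of each further list with the smallest p in the tumours, up to 4 with the largest ratio in the adenovirus pair, and the 5 genes most correlated with Cyp7a1 and with Cyp8b1. Markers and sex-linked genes are named where they move with a result or qualify the sum of their list. In the adenovirus pair Hnf4a, Nr5a2, Nr0b2, Cyp46a1 and Ephx1 were named outside this rule after their values were seen. The members and lists were chosen with earlier results of these data known. The alternatives were quantile normalization, median centring, pseudocounts of 1 and 64, no level filter, a filter at percentile 75, array weights, a Y-linked covariate, dropping the variance trend, the mean of probe sets, every probe set, and each tumour left out. The fit was tested on simulated data.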

Additional observations from a re-analysis of the deposited data

How the results depend on the processing

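No member was called under any of the alternatives, and neither was any gene of the 3 further lists (0 genes), which were not recounted with every probe set in the fit. Over all genes 1 gene was called, and 0 with median centring, a pseudocount of 1, the filter at percentile 75, no variance trend, the Y-linked covariate or the mean of probe sets. With each tumour left out in turn the count lay between 0 and 6, and it was 6 without mTERC- tumour 1. At an unadjusted p below 0.05 the alternatives that kept 11980 genes and 6 tumours gave 536 to 1027 genes. Cyp7a1, Akr1d1, Acox2, Amacr and Slc27a5 kept their direction in the tumours in every alternative run. Members with a difference near 0 turned. Cyp27a1 had 0.017 with quantile normalization and 0.0063 with the Y-linked covariate, Hsd3b7 -0.15 with that covariate, Baat 0.15 with array weights, and Cyp8b1 0.046 with a pseudocount of 64 and 0.76 with the covariate. With each tumour left out, the log2 difference of Cyp7b1 ran from -0.026 to 0.85, of Baat from -0.62 to 0.27, of Hsd3b7 from -0.069 to 0.24, of Cyp27a1 from -0.23 to 0.19 and of Cyp8b1 from -0.91 to 0.42. Ranges of the members that kept their direction were 0.19 to 0.95 for Cyp7a1, -1.51 to -0.55 for Akr1d1, -1.17 to -0.53 for Acox2, -0.77 to -0.36 for Amacr and -1.24 to -0.86 for Slc27a5. The order of the members by size also depends on the setting. Slc27a5 had -0.92 and Akr1d1 -0.98 with quantile normalization, Cyp7a1 had 1.12 with a pseudocount of 1, and Akr1d1 had -1.10 with the Y-linked covariate. The cause was not tested. In the adenovirus pair, 4 or 5 members were at least 2-fold higher under each alternative, and the log2 ratio of Cyp8b1 ran from 2.43 with a pseudocount of 64 to 4.92 with a pseudocount of 1. With the mean of its probe sets the log2 ratio of Baat was -0.07, and with quantile normalization that of Acox2 was 0.002. No paired analysis was possible because the labels pair no tumours across the groups.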
